A study of Mus musculus with 18 samples.

Results

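The acetylated RNA peaks described here are those that the authors' peak table assigns to an untranslated region (UTR) or a start codon. They number 208 of the 1358 peaks in that table. On the 5′ side 111 peaks were found, 108 classed as 5′ UTR and 3 as start codon (Nomo1, Ermp1 and Csnk1a1), and 97 were classed as 3′ UTR. The other peaks were classed as coding sequence (809) or simply as exon (341). The 208 peaks lay in 197 genes, 110 with a peak on the 5′ side, 93 with one in the 3′ UTR and 6 with both (Hmga1, Ran, Hnrnpd, Brd2, Eif1 and Ereg). All but 1 of the peaks (207) lay in genes marked as protein coding.

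The cells were TC1, a mouse tumour line that the submitters describe as a fibrosarcoma, either wild type (WT) or edited with a guide RNA that targets Nat10 (sgNAT10). Peaks came from acRIP-seq, in which RNA carrying N4-acetylcytidine is precipitated with an antibody and sequenced beside its input, with 1 precipitate and 1 input library per genotype. The genes under the peaks were followed in mRNA-seq and in Ribo-seq, which sequences the RNA fragments protected by ribosomes, with 2 libraries per genotype in each assay. A second set of libraries, WT and sgMyc, was not used. The labels do not say whether the edited line is a clone or a pool, nor whether the paired libraries came from separate cultures, so the p-values below measure only the spread between libraries.

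NAT10 is the acetyltransferase that makes N4-acetylcytidine in 18S ribosomal RNA, in serine and leucine tRNAs with the adaptor THUMPD1, and, as has been reported, in mRNA. In ribosomal RNA and tRNA the modified cytidine stands in a CCG motif. The 5′ UTR is what the initiation complex loads on and scans before it reaches the start codon, and structured or regulated 5′ UTRs are known for ferritin and ornithine decarboxylase. The 3′ UTR holds the sites through which microRNAs and RNA-binding proteins set stability and translation. A peak in either region therefore lies outside the decoded sequence, but on opposite sides of it.

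The start of the mRNA could be read for part of the 5′ peaks. RefSeq start windows on GRCm38.p6, the assembly that mm10 denotes, were found for 90 of the 110 genes. The first 50 transcribed bases lay wholly inside the peak in 24 of these windows. CCG, searched on the transcript strand only, occurred in 19 of the 24 (79.2%), against 42.4% of all 32851 start windows in the table. The windows inside peaks were also richer in G and C, with a median of 72% against 56%. Among the 7172 windows with a GC content between 63.5% and 74.5%, 77.1% held CCG. The share under the peaks was thus close to that of windows of like composition. The 8 stretches below show the first CCG, in capitals, with up to 12 bases on either side, for 8 genes whose values are given later. Each is written 5′ to 3′ as the DNA letters of the transcript strand, from RefSeq.
Eef2, chr10:81176639-81176665, plus strand: cagcggtctcttCCGccgcagccgccg
Eif1, chr11:100319964-100319990, plus strand: tgaatacaggcgCCGcccctccgcccc
Fau, chr19:6057979-6057996, plus strand: cagcagcggcgtCCGcgg
F2r, chr13:95618436-95618462, minus strand: gcctctagtcacCCGcaggctccgacc
Hnrnpa0, chr13:58128526-58128552, minus strand: ttgtgtggtgtcCCGataggggagcgg
Sf3b1, chr1:55027449-55027475, minus strand: cggcgcgcgctcCCGggtgcgcacgct
Ahnak, chr19:8989293-8989319, plus strand: ggagcagctctgCCGcggggactgcac
Ermp1, chr19:29648396-29648415, minus strand: ggaggCCGcggtggcccgga
In Eef2 the triplet is the first of 4 in the window, while Fau and Sf3b1 hold 1 each. Such a match is only a description of the letters. Peaks were 120 bases or longer on this side, so they do not show which cytidine was bound.

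Whole reads could be recovered from the deposited FPKM (fragment counts scaled to gene length and library size) for 99.9% of genes in mRNA-seq and 99.99% in Ribo-seq. They summed to between 11226075 and 14755234 per mRNA library and between 1542261 and 3192728 per Ribo-seq library. These sums are lower bounds, since the smallest whole numbers that fit were taken and genes without a fit left out. By these sums footprints were counted with less precision. One library stood apart: the RNA gene Gm23935 held 35.8% of all FPKM in the second sgNAT10 mRNA library and 22.0% to 23.1% in the other 3. Nat10 itself stood at 5.36 and 5.30 FPKM in the WT mRNA libraries and at 3.59 and 3.95 in sgNAT10, a log2 change of -0.41 (limma adjusted p = 0.00266), so its mRNA was lower but present. Its footprints were 11.9 and 17.4 FPKM in WT and 8.33 and 6.60 in sgNAT10 (log2 change -0.87, limma adjusted p = 0.193). Of 8 mesenchymal markers, 7 passed the filter in mRNA, a mean of 1 FPKM over both genotypes, with 4 higher (Vim, Thy1, Col1a2 and Pdgfra) and 2 lower (Pdgfrb and Col3a1). Col1a1 did not pass it (0.264 and 0.216 FPKM in WT). In WT, Pdgfra stood at only 0.993 and 0.929 FPKM and Thy1 at 1.04 and 1.35. In sgNAT10 they stood at 7.94 and 7.89 and at 42.6 and 40.9. The summed level of the 8 markers was 286 to 295 FPKM in WT and 531 to 556 in sgNAT10, and Vim made up most of it (248 and 255 FPKM in WT, 444 and 421 in sgNAT10). Of 3 macrophage markers tested, Cd14 was higher (2.41 and 2.15 FPKM in WT, 10.7 and 8.75 in sgNAT10), while Csf1r and Cd68 did not pass. The 2 epithelial markers with mRNA values (Cdh1 and Krt8) and the 2 endothelial ones (Pecam1 and Cdh5) summed to at most 0.262 FPKM in any library, and Krt18, for which only footprints were analysed here, had 0.931 to 4.14 FPKM. The T cell markers had no values in the tables analysed here. The part of these shifts in any result below was not tested.

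The classes were checked against the position of each peak between the RefSeq start and end of its gene. Peaks of the 5′ side lay a median of 417 bases from the gene start, and 80 of 111 (72.1%) had their midpoint in the first 10% of the gene or before its start. Peaks of the 3′ UTR lay a median of 1253 bases from the gene end, and 65 of 97 (67.0%) were in the last 10% or beyond the end. Of the coding peaks, 9.16% lay in the first of these stretches and 11.0% in the last. Some peaks went against their class. The midpoints of 2 peaks of the 5′ side (St3gal2 and Fth1) fell beyond the middle of the gene, those of 7 peaks of the 3′ UTR fell before it, and 2 peaks of the 5′ side and 8 of the 3′ UTR, counted above, lay outside the RefSeq bounds. The Fth1 peak joins 4 blocks of 747 bases in all, and the Hmga1 3′ peak 5 blocks of 1040 bases, so neither is limited to 1 region of its mRNA.

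**Figure D1:**
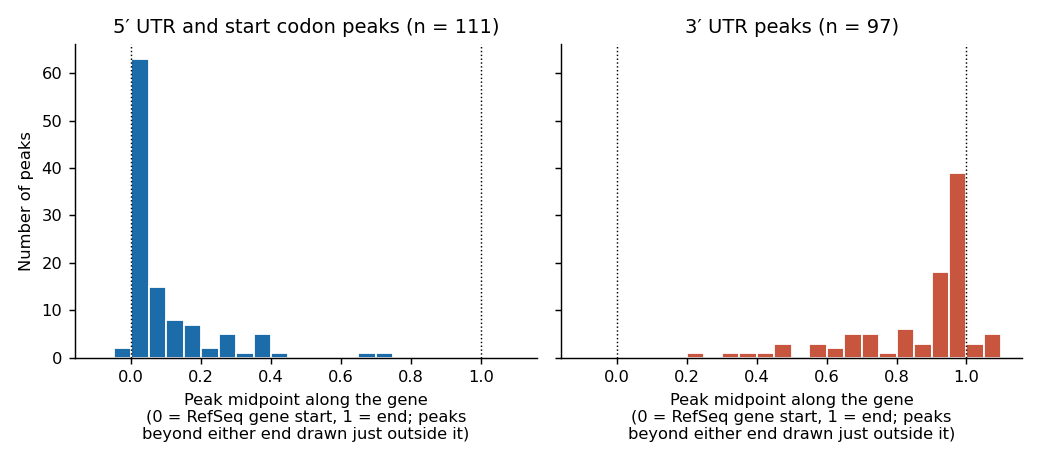
Histograms of the midpoint of each peak along its gene (horizontal axis, 0 at the RefSeq start and 1 at the end, reading along the transcript), as numbers of peaks (vertical axis), for the 111 peaks of the 5′ side and the 97 of the 3′ UTR. Most 5′ peaks (80) stand in the first 10% or before the start, and most 3′ peaks (65) in the last 10% or beyond the end, with 7 peaks of the 3′ UTR left of the middle.

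Myc is the clearest case of a doubtful class. Its peak at chr15:61985809-61987159, classed as 3′ UTR, lay upstream of both Myc coding peaks (chr15:61987486-61987845 and chr15:61989568-61989747) on the plus strand. Among the 14 peaks of the 3′ UTR whose gene also had a coding peak, this was the only 1 not downstream of all of them. All 27 such peaks of the 5′ side lay upstream of the coding peaks of their gene. Myc, the transcription factor named in the title of the study, is therefore kept in the counts of the 3′ side by its class, while the data go against that class.

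Enrichment over input was slightly greater at the 5′ side, and peaks were of the same length. The median fold enrichment was 2.06 at the 5′ side (quartiles 1.73 and 3.22) and 1.92 in the 3′ UTR (1.52 and 2.99). It was 1.67 in coding peaks, 1.96 in peaks classed as exon and 1.77 over all peaks. At least 2-fold enrichment was reached by 65 peaks of the 5′ side (58.6%), 44 of the 3′ UTR (45.4%) and 29.3% of coding peaks. It was reached by 47.8% of exon peaks and 37.5% of all peaks, so the 3′ UTR did not exceed the exon class. The median length, summed over exon blocks, was 181 bases at the 5′ side and 180 in the 3′ UTR. The span on the genome differed more, with medians of 238 and 180 bases, since 61.3% of the 5′ peaks and 85.6% of the 3′ peaks consisted of 1 block. With 1 precipitate per genotype these are descriptions of the table, and no test was made.

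The share of peaks that passed the authors' own false discovery rate (FDR) of 0.05 for enrichment was highest in coding peaks. It was 92 of 111 (82.9%) at the 5′ side and 71 of 97 (73.2%) in the 3′ UTR, and 89.0% in coding peaks. Peaks that did not pass lay in mRNAs of lower level. The median WT level was 7.91 FPKM for the genes of 5′ peaks that did not pass and 26.2 FPKM for those that did, and 5.24 against 21.0 FPKM for 3′ peaks. Fold enrichment fell with mRNA level across members, with a Spearman correlation of -0.30 over 110 peaks of the 5′ side and -0.45 over 93 of the 3′ UTR. These points share the same 4 libraries, and high folds at low coverage are among them.

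The most enriched peak of the 5′ side lay in Map4k4, a kinase of the stress-activated MAP kinase pathway, at chr1:39901003-39901242. It was enriched 23.5-fold with a log10 FDR of -10.0. The next were Foxf2, a forkhead transcription factor of mesenchyme, at 21.7-fold (log10 FDR -4.50), and Itpr1, the calcium channel of the endoplasmic reticulum gated by inositol trisphosphate, at 19.9-fold (-5.72). Arhgap11a had 9.03-fold enrichment over 570 bases. The other 6 of the first 10 (Mturn, Onecut1, Tcp11l2, Tmem81, Asb6 and Lgi4) ranged from 9.03-fold to 16.2-fold, but none passed the FDR of 0.05. Onecut1 mRNA was at 0.244 and 0.357 FPKM in WT and Mturn at 0.425 and 0.373, so these folds rest on scarce RNA.

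In the 3′ UTR the order was led by Pyurf at 21.7-fold (log10 FDR -3.46), Catsper2 at 18.1-fold (-1.63) and Il6st at 16.1-fold (-73.3). Il6st encodes gp130, the signalling receptor shared by cytokines of the interleukin-6 family, and its peak at chr13:112508976-112509306 lay beyond the RefSeq end of the gene. E2f7, a repressor of the E2F cell cycle program, had 7.07-fold enrichment, and Grem1, which is secreted and antagonises bone morphogenetic proteins, had 6.91-fold over 657 bases. Slc36a1, a lysosomal amino acid transporter, stood at 6.32-fold (log10 FDR -1.53). Zfp788, Azgp1, Galnt17 and Marveld1 also ranked among the first 10, at 5.87-fold to 14.4-fold, without passing the FDR.

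The table also gives a log2 difference between the genotypes for each peak, but not which genotype is on top, so signs are stated here as deposited. Peaks of the 3′ UTR were spread more widely, with more of them far on the negative side. A difference of -1 or lower was found in 32 of 97 peaks of the 3′ UTR (33.0%) and in 22 of 111 of the 5′ side (19.8%), against 17.8% of all peaks. A difference of 1 or higher was found in 23 (23.7%) and 29 (26.1%), against 19.8% of all peaks. Either way, 56.7% of the 3′ peaks and 45.9% of the 5′ peaks passed 1, against 37.6% of all peaks. The medians were 0.15 at the 5′ side and 0.00 in the 3′ UTR.

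By the deposited FDR of the difference, 72 peaks of the 5′ side (64.9%) and 64 of the 3′ UTR (66%) were called at 0.05, against 65.3% of all peaks, so the share called was near that of the whole table. The called peaks of the 5′ side were 45 positive (40.5% of its peaks) and 27 negative (24.3%). Those of the 3′ UTR were 30 positive (30.9%) and 34 negative (35.1%). Over all peaks 516 were called positive (38%) and 371 negative (27.3%), so the split of the 5′ side was near that of the whole table. Among peaks that passed the enrichment FDR, 20 of 71 at the 3′ UTR and 15 of 92 at the 5′ side had a difference of -1 or lower. Over all peaks that passed it, 161 of 1152 did. With 1 library per arm these calls compare libraries and not conditions.

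**Figure D2:**
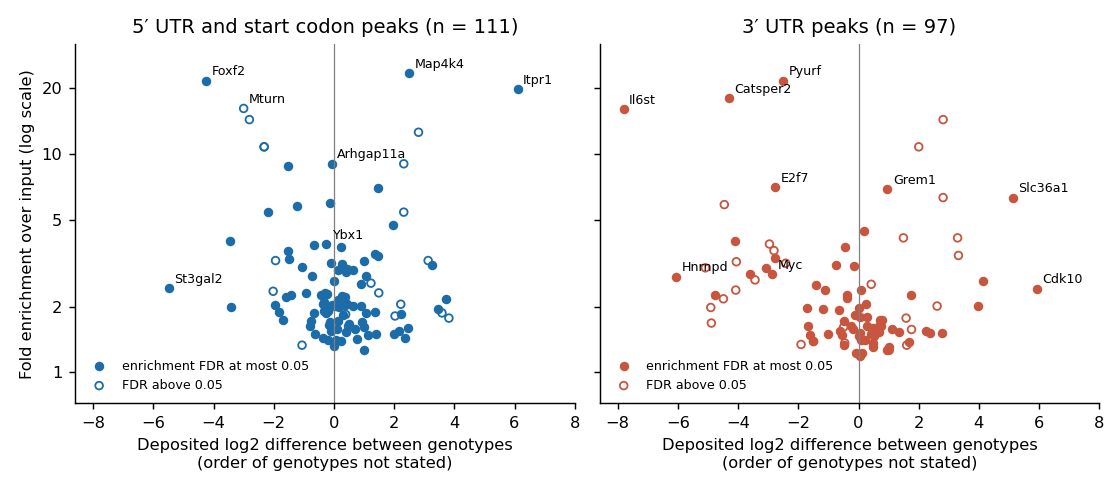
Fold enrichment over input (vertical axis, log scale) against the deposited log2 difference between genotypes (horizontal axis, order of the genotypes not stated), 1 point per peak, for the 5′ side and the 3′ UTR. Open points did not pass the enrichment FDR of 0.05 (19 on the left, 26 on the right), and the lowest differences are those of Il6st (-7.80) and Hnrnpd (-6.05) in the 3′ UTR.

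The widest differences belonged to single genes of varied function. At the 5′ side the highest were Itpr1 (6.11), Phpt1 (3.82), Fam198b (3.74), the splicing factor Sf3b1 (3.59) and the chaperonin subunit Cct5 (3.47). The lowest were the sialyltransferase St3gal2 (-5.49), Foxf2 (-4.25), Ntpcr (-3.47), the polarity protein Pard6b (-3.43) and Mturn (-3.00). In the 3′ UTR the highest were Cdk10 (5.94), Slc36a1 (5.13), Akap11 (4.13), the syntaxin Stx6 (3.98) and the RNA-binding protein Arid5a (3.32). The lowest were Il6st (-7.80), Hnrnpd (-6.05), Fam172a (-5.09), Tmem138 (-4.91) and the scaffold Slc9a3r1 (-4.89). Of these 20, 7 did not pass the enrichment FDR (Phpt1, Sf3b1, Mturn, Arid5a, Fam172a, Tmem138 and Slc9a3r1), and the differences of Mturn and Arid5a did not pass their own. In all, 8 of the 208 peaks, among them Onecut1 and Zfp788, shared their 3 difference values exactly with another peak.

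Where a gene had peaks at both ends, the ends did not always carry the same sign. Ereg, which encodes the EGF receptor ligand epiregulin, had differences of 1.00 at the 5′ end and 2.76 at the 3′ end. Hnrnpd, the AU-rich element binding protein AUF1, had -0.24 and -6.05. Brd2, a reader of acetylated histones, had -0.78 and -1.67, and Hmga1, an architectural chromatin protein, had -0.30 and -0.40. Eif1, the scanning factor that guards start codon choice, had 0.29 and 0.23. Ran, the GTPase of nuclear transport, had -0.34 and 0.47, so it alone of the 6 changed sign. Fold enrichment at the 5′ end exceeded that at the 3′ end in 3 of the 6 (Eif1 1.83 against 1.4, Ran 1.90 against 1.36, Hmga1 2.31 against 2.26).

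The Myc peaks stood out by sign and weight. The peak classed as 3′ UTR was enriched 2.82-fold and had a difference of -2.87 (log10 FDR -144). The coding peaks were enriched 2.22-fold and 1.54-fold, with differences of -1.57 and -0.66. All 3 were thus on the same side. Dnmt1, also named in the title, had 2 coding peaks with differences of 0.29 and -0.54 and no UTR peak, while Nat10 and Cdk2 had no peak of any class. Of the RNA acetylation genes (Nat10, Thumpd1, Sirt7, Ddx21 and Snord13), Thumpd1 had a peak in the 3′ UTR, at chr7:119716015-119716193, enriched 1.95-fold with a difference of -1.19 (log10 FDR -7.12). Thumpd1 mRNA was 21.3 and 19.3 FPKM in WT and 18.3 and 19.4 in sgNAT10 (log2 change -0.10, limma adjusted p = 0.193), so these overlapped. Ddx21, a nucleolar helicase with a coding peak only, fell with Nat10 in mRNA (log2 change -0.28, limma adjusted p = 0.00114). Sirt7, the deacetylase that acts on NAT10, did not pass (log2 change -0.01, limma adjusted p = 0.953), and Snord13, the guide for ribosomal RNA acetylation, was not among the tested genes.

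Levels of mRNA were compared with limma on log2(FPKM + 1), 2 sgNAT10 against 2 WT libraries, so that all fold changes are on that scale and understate the change of low genes. The genes under UTR peaks leaned upward. Of 110 genes with a 5′ peak, 105 passed the filter of a mean of 1 FPKM, and 54 were higher and 23 lower in sgNAT10 at an adjusted p under 0.05. Of 93 genes with a 3′ peak, 86 passed, with 43 higher and 23 lower. The median log2 change was 0.15 and 0.16, against 0.01 over all 11735 genes tested. Over those genes 33.7% were called higher, 29.6% lower and 63.3% either way, so that the share called was large everywhere. Among the members tested, 51.4% and 50% were higher and 21.9% and 26.7% lower. A peak needs RNA in at least 1 genotype, so a gene scarce in WT may be a member through its sgNAT10 level. The part of this in the upward lean was not tested.

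Member genes were also more abundant than most. The median WT mRNA level was 24.6 FPKM for genes with a 5′ peak and 19.7 FPKM for those with a 3′ peak, against 8.0 FPKM for all genes tested in both assays. The deposited difference was at most weakly related to the mRNA change. Over 106 peaks of the 5′ side the Spearman correlation of the deposited difference with the mRNA log2 change was 0.00067, and over 90 peaks of the 3′ UTR it was 0.20. Since the libraries are shared by all points, these are descriptions.

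The largest rises were those of 2 secreted ligands, Grem1 and Ereg. Grem1 went from 2.23 and 3.05 FPKM in WT to 168 and 172 in sgNAT10, a log2 change of 5.56 ± 0.11 (SE, limma adjusted p = 9.26e-06). Ereg went from 3.16 and 2.93 to 31.9 and 32.4 FPKM (3.04 ± 0.05, limma adjusted p = 6.77e-06). The groups were far apart for both. Fibronectin, Fn1, rose from 21.9 and 22.5 to 68.3 and 64.1 FPKM, and the axon guidance ligand Slit2 from 0.725 and 0.766 to 3.93 and 4.10. Vegfa, the endothelial growth factor, fell from 27.5 and 29.4 to 17.1 and 18.1 FPKM (log2 change -0.66, limma adjusted p = 0.000245). Of the 6 tested genes of this group, which like the other role groups was drawn up from the members after their values were seen, 5 were higher and 1 lower.

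Transcription factors were divided, with 10 of 17 tested members higher and 5 lower. Jun, an AP-1 subunit with 2 peaks in its 5′ UTR, rose from 23.7 and 24.9 to 86.3 and 87.9 FPKM. Egr1, an immediate early factor with a 3′ peak, rose from 1.61 and 1.72 to 6.72 and 6.55 FPKM, and the nuclear receptor Nr2f2 from 5.68 and 5.85 to 20.4 and 21.2. Myc fell from 115 and 117 FPKM to 40.0 and 40.9 (log2 change -1.49 ± 0.03, limma adjusted p = 9.41e-06), the largest fall on the 3′ side. Hic1, a repressor, fell from 3.47 and 3.41 to 1.83 and 2.28 FPKM. Among the other 3′ genes, Adgra2 (1.4) rose on the log2 scale, while the kinase Map2k7 (-0.45), Slc9a3r1 (-0.58) and Slc36a1 (-0.66) fell.

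Genes of translation with a UTR peak were lower more often than higher, with 7 of 15 lower and 3 higher. Over all genes tested 29.6% were lower and 33.7% higher. Lists not limited to genes with a UTR peak went the same way. Of 85 ribosomal protein genes 55 were lower and 6 higher, and of 38 scanning and initiation factors 20 were lower and 9 higher. Eef2, the translocation factor of elongation, fell from 1075 and 1086 FPKM to 569 and 580. Fau, which encodes ribosomal protein eS30 as a fusion with a ubiquitin-like domain, fell from 451 and 453 to 296 and 287 FPKM. Eif5a, the hypusinated elongation factor, fell from 773 and 753 to 565 and 577 FPKM, and Pa2g4, a ribosome-associated protein, from 135 and 132 to 89.7 and 88.7. Eif1 changed little in size (log2 change -0.18, limma adjusted p = 0.00584). Ybx1, the cold shock protein that packages mRNA, went against these: it rose from 371 and 370 FPKM to 1303 and 1344 (log2 change 1.83 ± 0.03, limma adjusted p = 7.32e-06). The giant scaffold Ahnak (-1.07), the membrane peptidase Ermp1 (-1.02) and Ntpcr (-0.97) were the lowest of the 5′ side on the log2 scale.

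RNA-binding and splicing proteins had 6 of 13 members higher and 2 lower in mRNA. Rbms1 rose from 22.1 and 22.5 FPKM to 50.5 and 51.3, while Sf3b1 (log2 change 0.02, limma adjusted p = 0.563) and Hnrnpd (0.02, limma adjusted p = 0.806) did not pass. The 5 members of folding and retrieval in the endoplasmic reticulum, all with a 5′ peak, had 2 higher and 1 lower. The disulfide isomerase Pdia4 and the hydroxylase Asph each rose by 0.38 on the log2 scale, and Nomo1 fell by 0.16.

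The wider pathways were read from gene lists in the same fit. Of 38 scanning and initiation factors, 9 were higher and 20 lower in mRNA (median log2 change -0.12), and Eif1 and Eif5a carried 5′ peaks. Of 34 tested 3′ UTR binding and deadenylation factors, 8 were higher and 15 lower (median -0.09), with UTR peaks in Hnrnpd and Tial1. Of 85 ribosomal protein genes, 6 were higher and 55 lower (median -0.21). That list holds Rpl and Rps symbols only, so Fau is not in it. UTR peaks were found in 3 of its 89 genes, Rpl32 on the 5′ side and Rpl22 and Rps9 on the 3′ side, while 55 had a peak of some class. Of 51 histone genes tested, 27 were higher and 4 lower (median 0.42), and of 24 matrix genes 11 were higher and 13 lower (median -0.22).

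In Ribo-seq few member genes passed. Of 103 tested genes with a 5′ peak, 5 were higher and 1 lower in sgNAT10, and of 79 with a 3′ peak 4 were higher and 1 lower. Over all 9707 genes 1.81% were called higher, 1.28% lower and 3.09% either way, against 5.83% and 6.33% of the members tested, which are more abundant. In the authors' deposited table, at an adjusted p under 0.05 from a test it does not name, more genes were called: 16 higher and 13 lower of 104 listed genes with a 5′ peak (27.9%), and 12 and 8 of 86 with a 3′ peak (23.3%), against 15.1% of all 10974 listed (7.45% higher and 7.65% lower). The genes called by limma on the 5′ side were Ereg, Jun, the thrombin receptor F2r, the RNA-binding protein Rbms1 and Fn1 as higher and the ferritin heavy chain Fth1 as lower. Those on the 3′ side were Grem1, Ereg, Nr2f2 and the chloride channel protein Clic1 as higher and Myc as lower. With any 1 of the 4 libraries left out, at most 1 of these calls held, that of Grem1 when either WT library was left out.

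Most of these followed their mRNA. Grem1 footprints went from 2.83 and 2.83 FPKM to 132 and 154 (log2 change 5.23 ± 0.21, limma adjusted p = 0.000614). Ereg footprints went from 0.0768 and 1.18 to 18.7 and 22.6 FPKM (3.81 ± 0.45, limma adjusted p = 0.0165), and Jun from 49.4 and 66.3 to 231 and 205. Groups did not overlap for any of the 3. F2r went from 12.2 and 9.28 to 35.1 and 37.4 FPKM, Fn1 from 63.8 and 63.9 to 144 and 146, and Rbms1 from 15.3 and 12 to 34.9 and 36.7. Nr2f2 went from 6.29 and 6.46 to 18.7 and 20 FPKM, and Clic1 from 214 and 221 to 381 and 368. Myc footprints fell from 281 and 281 FPKM to 80.2 and 126 (log2 change -1.47 ± 0.23, limma adjusted p = 0.0298), close to the -1.49 of its mRNA. Its footprints per mRNA were thus near level (log2 change 0.02, limma adjusted p = 0.99).

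**Figure D3:**
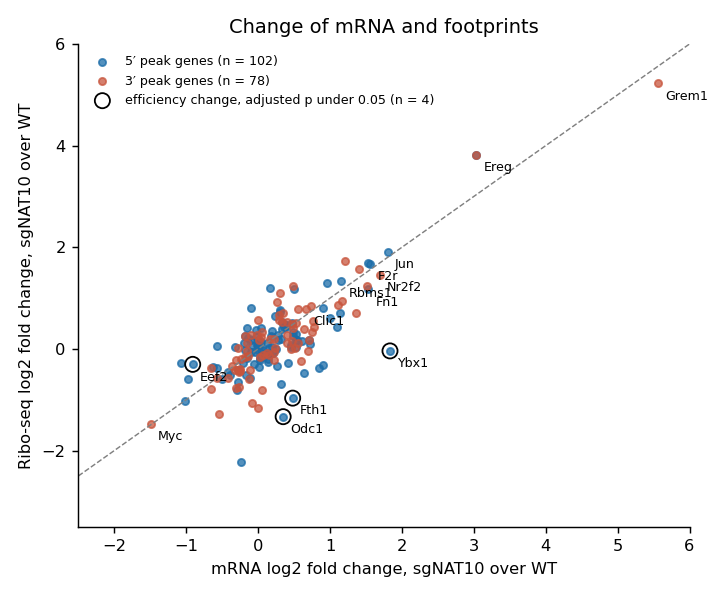
Ribo-seq against mRNA log2 fold change, sgNAT10 over WT, for the 102 genes with a 5′ peak and the 78 with a 3′ peak that were tested in both assays (genes with both are drawn in the 3′ colour), with a dashed line where the changes are equal. Circles mark the 4 genes whose footprints per mRNA changed, all with a 5′ peak, and the other named points are genes called in Ribo-seq, which lie near the line.

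The change of footprints per mRNA was tested as the interaction of genotype and assay over the 8 libraries. It was called for 4 of 102 genes with a 5′ peak (3.92%) and for 0 of 78 with a 3′ peak. Over all 9200 genes tested 0.261% were called, 0.152% higher and 0.109% lower. The members tested are more abundant than most genes, and the part of level in these shares was not tested. At an unadjusted p under 0.05 there were 22 of 102 genes on the 5′ side and 4 of 78 on the 3′ side, against 1091 of all 9200. The difference between the sides was not tested. Medians were near 0 on both sides, with a log2 change of -0.06 for 5′ and -0.12 for 3′ genes against -0.02 for all. The calls on the 5′ side were Ybx1, Odc1 and Fth1 as lower and Eef2 as higher. Ybx1, Odc1 and Fth1 are among the genes, named below, whose levels are uncertain because near-identical copies exist.

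Ybx1 gained mRNA and no footprints. Against the rise in mRNA given above, the footprints read 184 and 205 FPKM (WT) and 191 and 187 (sgNAT10). The change of footprints per mRNA was -1.87 ± 0.09 on the log2 scale (limma adjusted p = 0.00129). Its 5′ peak, at chr4:119293670-119294604 in 2 blocks of 537 bases in all, was enriched 3.86-fold (log10 FDR -165) with a difference of -0.25. A coding peak of the same gene had 1.87-fold enrichment and a difference of -0.26.

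Fth1 and Odc1 moved in opposite directions in the assays. Fth1, the heavy chain of the iron store ferritin, whose 5′ UTR holds the iron-responsive element, rose in mRNA from 1090 and 1106 FPKM to 1531 and 1534. Its footprints fell from 467 and 500 to 271 and 224 FPKM (log2 change -0.97, limma adjusted p = 0.0248), so the change per mRNA was -1.45 ± 0.13 (limma adjusted p = 0.0232). Odc1, ornithine decarboxylase, the first enzyme of polyamine synthesis, rose in mRNA from 106 and 101 to 127 and 138 FPKM. Its footprints were 12.7 and 16.1 FPKM (WT) and 5.02 and 5.11 (sgNAT10) (log2 change -1.33, limma adjusted p = 0.0799), and the change per mRNA was -1.68 ± 0.18 (limma adjusted p = 0.0317). The groups did not overlap in either assay for either gene.

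The ferritin light chain Ftl1 and the spermine oxidase Smox, the other iron storage and polyamine genes with a 5′ peak, had values of the same sign without passing. Ftl1 mRNA rose from 377 and 385 FPKM to 694 and 683, with footprints of 24.1 and 20.7 in WT and 20.9 and 13.8 in sgNAT10. Its change per mRNA was -1.22 (limma adjusted p = 0.139), and that of Smox was -1.10 (limma adjusted p = 0.400). All 4 of these genes rose in mRNA. They were grouped after their values were seen, so their common sign supports nothing by itself. All 4 peaks passed the enrichment FDR, with enrichments of 2.15-fold (Fth1), 2.97-fold (Ftl1), 2.31-fold (Odc1) and 3.09-fold (Smox), all above the 5′ median, and with differences of 0.15, 0.43, -0.94 and 3.27.

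Eef2 was the 1 gene called higher. Its mRNA fell by 0.91 on the log2 scale, and its footprints were 976 and 986 FPKM in WT and 815 and 775 in sgNAT10 (log2 change -0.30, limma adjusted p = 0.157). The change per mRNA was 0.61 ± 0.07 (limma adjusted p = 0.0373). Its peak at chr10:81176631-81177716 was enriched 2.04-fold with a difference of 0.37, and covers the Eef2 stretch printed above. When each assay was given its own spread, an alternative added after the data were seen, Ybx1 and Fth1 still passed (limma adjusted p = 0.00474 and 0.00821), while Odc1 and Eef2 did not (0.123 and 0.202). For footprints per mRNA, the mRNA and Ribo-seq libraries of the same genotype and number were left out together. Each such fit kept 1 library of that genotype per assay. The calls were lost in these fits, though every sign stayed the same. The changes ran from -1.95 to -1.79 for Ybx1, -1.88 to -1.48 for Odc1, -1.59 to -1.31 for Fth1 and 0.55 to 0.66 for Eef2. Leaving out a single library was not tried for this comparison.

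**Figure D4:**
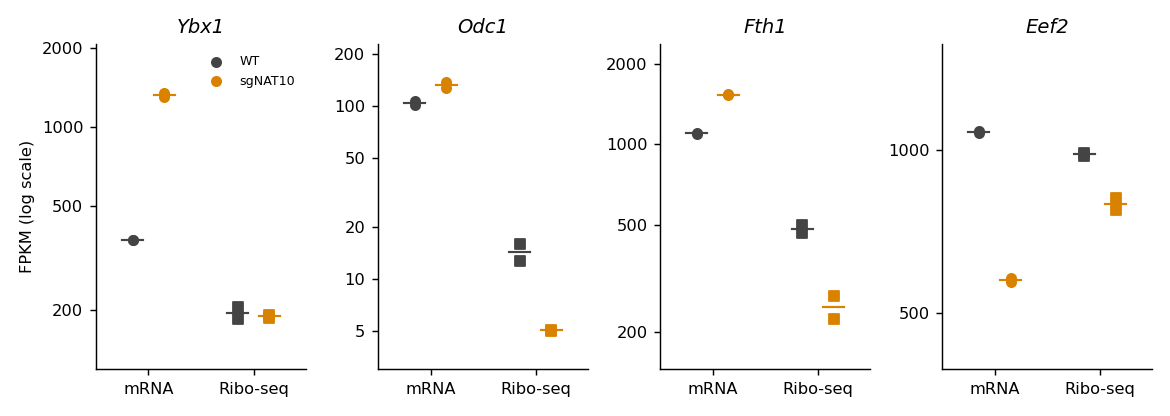
FPKM (log scale, a range of its own for each gene) of Ybx1, Odc1, Fth1 and Eef2 in mRNA-seq (circles) and Ribo-seq (squares), 2 libraries per genotype as points and their mean as a line, WT in grey and sgNAT10 in orange. Ybx1, Odc1 and Fth1 mRNA stands higher in sgNAT10 while their footprints do not, and Eef2 mRNA falls further than its footprints.

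Extremes that did not pass were found on both sides. Rbmxl1, a splicing regulator, had 4.30 and 9.80 FPKM of footprints in WT and 1.65 and 0 in sgNAT10, with a change per mRNA of -1.98 (limma adjusted p = 0.347). On the 3′ side Cdk10 (-1.16, limma adjusted p = 0.590) and Pyurf (0.80, limma adjusted p = 0.515) were the furthest from 0 in either direction. Fth1, Ftl1, Ybx1, Odc1, Hmga1, Rpl32 and Rbmxl1 have near-identical copies elsewhere in the mouse genome, and how reads shared between copies were counted is not given in the sources used here, so their levels are uncertain.

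Baseline ribosome load, the log2 ratio of footprints to mRNA in WT (each FPKM + 1), was lower for genes with a 3′ peak than for those with a 5′ peak. The median was -0.37 over 78 genes with a 3′ peak (quartiles -1.09 and 0.17) and -0.04 over 102 with a 5′ peak (-0.72 and 0.78). It was 0.16 over all 9200 genes and 0.33 over 566 genes with a coding peak. A load of -1 or lower was found for 23 genes of the 3′ side (29.5%) and 15 of the 5′ side (14.7%), against 13.0% of all. The order of the medians held in both WT replicates, with -0.43 and -0.24 for 3′ genes and -0.08 and 0.02 for 5′ genes. In sgNAT10 the medians were -0.44 and 0.07.

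The gap between the sides depended on the filter on low values. With a minimum mean of 5 FPKM in both assays the medians were -0.02 for 3′ genes and 0.04 for 5′ genes. Among genes of at least 30 FPKM in WT mRNA they were -0.32 over 24 genes and -0.31 over 43, against 0.34 for all 1191 such genes. Between 10 and 30 FPKM they were -0.46 over 24 genes and 0.19 over 39, and the latter equals the 0.19 of all genes of that range. Below 10 FPKM they were -0.34 over 30 and 0.21 over 20. Since FPKM divides by a gene length that the sources do not define, untranslated sequence may add to mRNA and not to footprints; its part in these ratios was not tested.

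**Figure D5:**
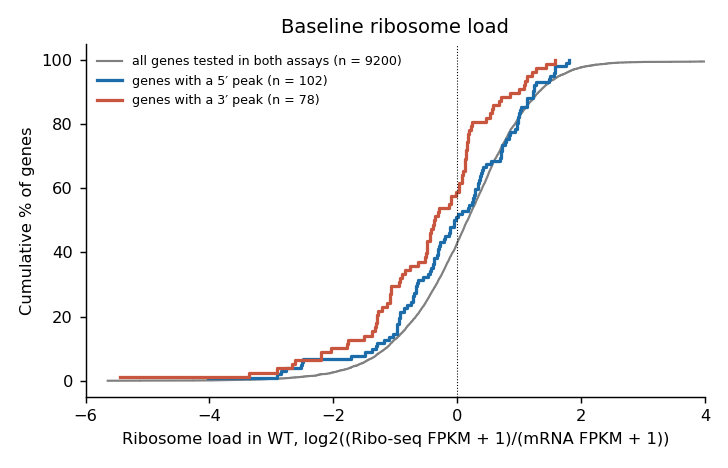
Cumulative share of genes (vertical axis, percent) by ribosome load in WT (horizontal axis, log2 ratio of Ribo-seq to mRNA FPKM, each + 1) for 102 genes with a 5′ peak, 78 with a 3′ peak and all 9200 genes tested in both assays (the axis is cut on the right). The curve of the 3′ genes lies left of the others over most of the range, with medians of -0.37, -0.04 and 0.16.

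The least loaded members included the ferritin light chain and ornithine decarboxylase. On the 5′ side the lowest were Ftl1 (-4.03), Hmga1 (-2.91), Rbmxl1 (-2.84), Odc1 (-2.77) and Tulp4 (-2.53). Repressed initiation is known for ferritin and ornithine decarboxylase mRNAs, but its part in these loads was not tested. Ftl1, Hmga1, Rbmxl1 and Odc1 are also among the genes named above whose near-identical copies make their levels uncertain. On the 3′ side the lowest were Lars2 (-5.45), the poly(A) binding protein Pabpc4 (-3.36), Hmga1, Gxylt1 (-2.66) and the Hippo pathway factor Tead1 (-2.62). Lars2, the mitochondrial leucyl-tRNA synthetase, had 432 and 406 FPKM of mRNA in WT and 482 and 958 in sgNAT10, with footprints of 5.61 to 11.6 FPKM in all 4 libraries, and its mRNA change did not pass (log2 change 0.70, limma adjusted p = 0.106). Its highest value was in the library in which Gm23935 was also highest, and the part of that library in it was not tested.

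The most loaded were Myh9 (1.8), Hnrnpa0 (1.75), the ribosome assembly factor Eif6 (1.58), Hnrnpd (1.57) and Srsf6 (1.56) on the 5′ side. On the 3′ side they were Hnrnpd, Clic1 (1.44), Myc (1.27), Itga5 (1.2) and Dhrs4 (1.13). Myh9 is a non-muscle myosin heavy chain, and Hnrnpa0, Hnrnpd and Srsf6 bind RNA; other RNA-binding members with a 5′ peak lay lower, among them Tial1 (0.35), Ddx17 (0.01) and Rbmxl1. The place of Myc among the 3′ peaks is subject to the doubt on its class. Across members, fold enrichment of the peak and baseline load were weakly related, with a Spearman correlation of -0.08 over 103 peaks of the 5′ side and 0.18 over 82 of the 3′ UTR. The deposited difference and the change of footprints per mRNA had correlations of 0.04 and -0.11.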

How the data were processed

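Per the submitters' processing notes, the tools of the series were FastQC, Trim Galore, Bowtie2 and featureCounts, and the build was mm10; versions, peak caller and gene model are not given in the sources used here. The mRNA and Ribo-seq levels are FPKM as deposited by the authors. Per the file headers, the deposited peak table holds a linear fold enrichment (a ratio over input), a p-value of that enrichment, log10 p and FDR values (treated as a score), and a log2 difference between genotypes. In 66 peaks, 6 of them in UTRs, the deposited FDR cell held text at a p-value of 0, and these were taken as passing. The authors' deposited expression log2 changes and p-values were used only to count their calls in Ribo-seq and mRNA. In mRNA, at their adjusted p under 0.05, 71.6% of 109 listed genes with a 5′ peak were called. So were 74.2% of 89 with a 3′ peak, against 44.3% of all 17379 listed.

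UTR peaks were the rows classed as 5′ UTR, start codon or 3′ UTR. Genes averaging 1 FPKM or more were tested with limma 3.58.1 (R 4.3.3; eBayes with a trend, two-sided) on log2(FPKM + 1), with Benjamini-Hochberg adjustment over all genes and a threshold of 0.05. Footprints per mRNA were tested in 1 model over both assays. The fits were tested on simulated data. Reads were called whole within a relative tolerance of 1e-09. Peaks, loads and lists are described without a test. Gene symbols were matched to RefSeq.

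The members, lists and role groups were chosen with earlier results of these data known. Named were the 10 most enriched peaks and the 5 highest and 5 lowest differences of each side, genes with peaks on both sides, genes called in Ribo-seq or in footprints per mRNA, the 6 largest changes each way, the 5 highest and lowest loads, the genes of the title and the RNA acetylation genes, with up to 3 of each other list; further members are named as examples of their role group. One gene that this rule names is not reported here. Alternatives were pseudocounts, filters, scaling, variance trend, a replicate block and leaving out each library. For footprints per mRNA, the mRNA and Ribo-seq libraries of the same genotype and number were left out together.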

Additional observations from a re-analysis of the deposited data

How the results depend on the processing

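Among the 29 single genes checked, no change that passed in the main fit or in an alternative was reversed in sign. Signs of changes that passed in neither were not counted, and those near 0 can flip. Some medians changed sign, among them the 5′ load and the 3′ difference, both near 0. Under quantile normalization further medians near 0 did so in Ribo-seq and in footprints per mRNA. Examples are ribosomal proteins in Ribo-seq (-0.005 to 0.016) and RNA-binding members in footprints per mRNA (-0.006 to 0.099). The 5′ to 3′ order of the fold medians also changed, as given below. The mRNA counts stayed within 1.5 times: without 1 library, 49 to 55 genes with a 5′ peak were higher and 19 to 22 lower, and 37 to 43 and 19 to 24 with a 3′ peak. Under quantile normalization the median mRNA log2 change of all genes was -0.03, and those of 5′ and 3′ genes were 0.11 and 0.10. The mRNA median of every gene list and role group kept its sign. Ribo-seq calls depended on the settings. A pseudocount of 0.1 left 3 genes higher on the 5′ side and 2 on the 3′ side; without a variance trend 0 and 1 were higher and 0 and 0 lower. Without 1 library, 0 to 0 genes of the 5′ side were higher and 0 to 0 lower, and 0 to 1 and 0 to 0 of the 3′ side. For footprints per mRNA on the 5′ side, quantile normalization, no trend, the replicate block and a spread per assay each left 0 higher. No trend left 1 lower and the replicate block 1 lower. The calls were lost when the same-numbered mRNA and Ribo-seq libraries of 1 genotype were left out together. Under the replicate block Eef2, Fth1 and Odc1 had limma adjusted p of 0.116, 0.0661 and 0.0661. Same-numbered WT and sgNAT10 libraries had almost no shared deviation across genes (correlation 0.0079 in mRNA and 0.0245 in Ribo-seq). With 2 libraries per genotype this cannot decide whether libraries were paired. Same-numbered mRNA and Ribo-seq libraries were not compared in this way. Peaks of at least 2-fold enrichment had median folds of 2.97 and 3.10 and a median 3′ difference of -0.92. The peaks at or below the median enrichment FDR had median lengths of 240 and 211 bases, and the genomic span of 5′ peaks was 238. With a minimum of 5 FPKM the median loads were 0.0402 and -0.0151; without 1 WT replicate they ran from -0.08 to 0.02 and from -0.43 to -0.24. Keeping only peaks in the expected part of their gene, added after the data were seen, gave median loads of -0.01 and -0.38. Of 943 alternatives for single genes, 78 lost a call, 53 in Ribo-seq, 25 in footprints per mRNA and 0 in mRNA. The cause of these changes was not tested, apart from the fewer samples of each left-out library. The footprint depth and 2 libraries per group limit what could be called, and the acRIP arm has no replicate.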
